A study of Mus musculus with 12 samples.

Results

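The mammalian SWI/SNF complex, also called BAF, was represented by 10 genes chosen by name, with earlier results of these data known. They were the ATPases *Smarca4* and *Smarca2* and the core subunits *Smarcb1*, *Smarcc1*, *Smarcc2* and *Smarcd2*. The BAF subunits *Arid1a* and *Arid1b* and the PBAF subunits *Arid2* and *Pbrm1* were also included. All 10 were found by Ensembl identifier among the 15651 genes of the deposited expression table, and all 10 passed the filter on low values in each comparison. RNA-seq was performed on leukemic spleen cells enriched on CD117 (c-Kit) beads from moribund mice with acute myeloid leukemia (AML), 3 mice of each genotype. *D/F* mice carried floxed *Dnmt3a* (Dnmt3a fl/fl), Flt3 ITD/ITD and Mx1Cre, and *T/F* mice carried floxed *Tet2* (Tet2 fl/fl) with the same Flt3 ITD/ITD and Mx1Cre. Cells of each mouse were split between DMSO, the vehicle, and CCS1477 (inobrodib), which binds the bromodomains of the histone acetyltransferases p300 and CBP, for 6 hours, so that 4 groups of 3 libraries (12 in all) were compared. *D/F* cells received CCS1477 at 4 µM and *T/F* cells at 2 µM, so dose and genotype cannot be told apart in any comparison of the responses. All cells were kept in medium with SCF at 60 ng/ml, IL-6 at 20 ng/ml and IL-3 at 20 ng/ml. No mouse received pIpC, so deletion of the floxed alleles relied on leaky Mx1Cre and could involve 1 or both alleles, and no group without the Flt3 ITD was sequenced. The ages of the mice are not given in the sources used here. The study reported a shorter median survival of *T/F* than of *D/F* mice, so age at moribundity may differ between the genotypes.

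SWI/SNF complexes use the energy of ATP to slide or evict nucleosomes, and so open DNA at enhancers and promoters. Each complex holds a single ATPase, either Smarca4 (BRG1) or Smarca2 (BRM), on a core of Smarcb1, Smarcc and Smarcd proteins. The canonical BAF form adds Arid1a or Arid1b, and the PBAF form adds Arid2 and Pbrm1, whose bromodomains bind acetylated lysines. Acute leukemia cells are known to depend on Smarca4, while p300 and CBP place acetyl marks on enhancers that BAF can occupy.

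The promoter windows of the 3 subunits whose transcripts passed the test for a response to CCS1477 below (*Pbrm1*, *Smarcc1* and *Smarcc2*) are printed to show what lies around their RefSeq starts. Each window runs from 250 bases before to 50 bases after the RefSeq start (build GRCm38.p6), is printed 5′ to 3′ on the strand of the gene, and covers chr14:31018888-31019187 (plus strand) for *Pbrm1*, chr9:110131774-110132073 (plus strand) for *Smarcc1* and chr10:128458986-128459285 (plus strand) for *Smarcc2*. Capitals mark the matches to any of 3 motifs, searched on both strands: the E-box CACGTG, the GC box GGGCGG and the CCAAT box CCAAT.
*Pbrm1*: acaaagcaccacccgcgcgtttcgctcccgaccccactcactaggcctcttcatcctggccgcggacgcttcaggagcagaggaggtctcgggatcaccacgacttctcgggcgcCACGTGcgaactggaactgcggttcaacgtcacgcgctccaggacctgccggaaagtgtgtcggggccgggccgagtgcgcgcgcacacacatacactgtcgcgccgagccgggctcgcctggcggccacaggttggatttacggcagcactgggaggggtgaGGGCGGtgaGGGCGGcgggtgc
*Smarcc1*: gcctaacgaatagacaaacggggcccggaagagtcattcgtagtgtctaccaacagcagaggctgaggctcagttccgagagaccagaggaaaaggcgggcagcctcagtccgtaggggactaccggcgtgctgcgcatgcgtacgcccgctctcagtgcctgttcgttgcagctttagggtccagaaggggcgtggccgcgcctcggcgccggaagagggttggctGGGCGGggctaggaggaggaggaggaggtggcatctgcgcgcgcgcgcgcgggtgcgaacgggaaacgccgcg
*Smarcc2*: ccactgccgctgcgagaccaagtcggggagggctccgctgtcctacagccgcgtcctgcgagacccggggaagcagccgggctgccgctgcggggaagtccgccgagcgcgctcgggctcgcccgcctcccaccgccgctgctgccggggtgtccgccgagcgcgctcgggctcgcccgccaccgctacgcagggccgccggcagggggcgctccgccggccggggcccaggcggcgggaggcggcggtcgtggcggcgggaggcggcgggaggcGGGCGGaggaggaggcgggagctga
RefSeq windows were found for 9 of the 10 subunits, with 2 windows for *Arid1a* and none for *Arid2*. The GC box was present in all 10 windows, compared with 35.7% of the 32851 promoter windows of the mouse table. The CCAAT box was present in none of the 10, compared with 37.4% of all windows. The E-box was present only in the *Pbrm1* window, 135 bases before the start, compared with 7.15% of all windows. The windows of the subunits were between 55.0% and 81.0% G and C, against a median of 52.7% over all windows. A motif match describes the letters only.

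Expression is given in TPM, a transcript abundance that is scaled by transcript length and can be compared between genes, and which is relative to all transcripts of a library. Libraries summed to between 914204 and 931697 TPM over the table, and the number of reads behind a value is unknown (the labels give 30000000 reads for a library). In bulk RNA, fewer cells of a type and less RNA per cell cannot be told apart. The 2 libraries of *D/F* replicate 2 stood apart, with a median gene at 20.4 TPM in DMSO and 20.0 TPM in CCS1477 against 16.1 to 18.8 TPM in the other 10 libraries. Several results that rest on this mouse are given with and without it. All 7 markers of leukemic progenitors (*Kit*, *Cd34*, *Flt3*, *Mpo*, *Elane*, *Ctsg* and *Prtn3*) were in the table. Their summed level was lower with CCS1477 (3625 to 10020 TPM against 802 to 4275 TPM in *D/F*, and 4151 to 6377 TPM against 1665 to 3002 TPM in *T/F*). The ranges overlapped in *D/F* and not in *T/F*. None of the 7 was called in the unpaired fit of *D/F*, and all 7 were called lower in its paired fit. The 6 mature neutrophil markers summed to 2649 to 9317 TPM against 1626 to 9295 TPM in *D/F*. In *T/F* they summed to 2269 to 7064 TPM against 2469 to 6870 TPM. Of these 6, *Ly6g* and *Camp* were lower with CCS1477 in 6 of 6 mice and were called lower in both paired fits. *Ngp* was called higher in the paired fit of *T/F* (adjusted p = 0.0108 by limma). *S100a8*, *S100a9* and *Ltf* were called in neither paired fit. In *D/F* cells *Ly6g* was at most 3.12 TPM. The 2 of 4 macrophage markers in the table (*Adgre1* and *C1qb*) summed to 7.47 to 11.6 TPM against 2.32 to 4.01 TPM in *D/F* and to 16.9 to 26.7 TPM against 5.43 to 11.2 TPM in *T/F*, without overlap. The only one of 4 B cell markers in the table, *Cd79b*, was also lower without overlap (10.4 to 22.8 TPM against 3.64 to 8.22 TPM in *D/F*, and 15.3 to 18.1 TPM against 10.9 to 13.4 TPM in *T/F*). The sums of the 3 of 6 T cell markers (13.8 to 25.7 TPM) and of the 4 of 5 erythroid markers (10.8 to 25.6 TPM) overlapped between treatments, and *Cd3e* and *C1qa* were not in the table. The part of these shifts in the values below was not tested. The targeted gene *Dnmt3a* overlapped between genotypes in DMSO (29.3 to 55.7 TPM in *D/F*, 39.9 to 53.9 TPM in *T/F*). *Tet2* did not overlap (38.3 to 43.4 TPM in *D/F*, 30.0 to 35.8 TPM in *T/F*). Neither was called between the genotypes in DMSO (adjusted p = 0.953 for *Dnmt3a* and 0.803 for *Tet2* by limma).

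All 10 SWI/SNF subunits were expressed in every library, with a spread in level from *Smarca2*, the lowest, to *Arid1a*, the highest. In DMSO-treated *D/F* cells the order of mean levels was *Arid1a* (172 ± 29.2 TPM, SD, n = 3), *Smarcd2* (143 ± 6.05), *Smarcc1* (121 ± 8.79), *Smarca4* (113 ± 6.12), *Pbrm1* (99.6 ± 1.27), *Smarcc2* (78.0 ± 9.48), *Smarcb1* (75.4 ± 0.822), *Arid1b* (64.2 ± 19.8), *Arid2* (45.0 ± 3.42) and *Smarca2* (24.1 ± 9.73). The ranges of neighbours in this order overlapped between *Smarcc1* and *Smarca4*, between *Smarcc2* and *Smarcb1*, and between *Smarcb1* and *Arid1b*. In DMSO-treated *T/F* cells the order was the same except that *Smarcb1* (81.5 ± 4.84 TPM, SD, n = 3) stood above *Smarcc2* (73.5 ± 0.984 TPM, SD, n = 3), and only *Smarcc1* and *Smarca4* overlapped as neighbours. With CCS1477, *Pbrm1* moved from the fifth place to the third in both genotypes, and *Smarcc1* moved from the third place to the fifth. The levels of the 10 genes summed to between 857 and 1006 TPM per library. The ranges of the CCS1477 and DMSO sums overlapped in *D/F*. In *T/F* they nearly met, with 872.8 to 941.6 TPM in DMSO and 941.8 to 983.7 TPM with CCS1477. The 2 libraries at this edge, DMSO replicate 3 and CCS1477 replicate 2, summed to 926271 and 931403 TPM over the table. The sums were not scaled to these totals, and no difference between the genotypes is read from them.

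**Figure D1:**
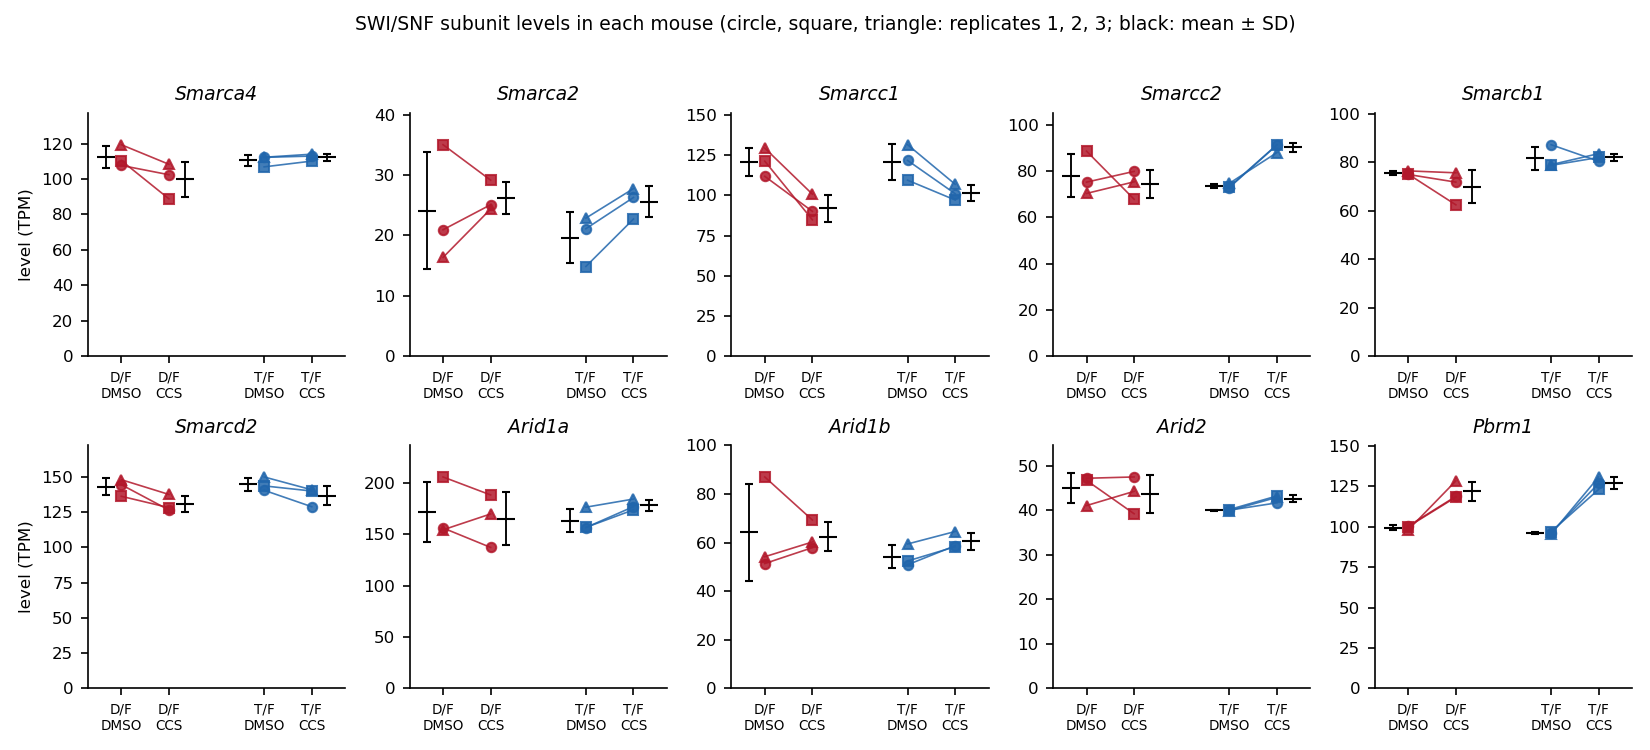
Level of each of the 10 SWI/SNF subunits (TPM, axis from 0) in the 12 libraries, with lines joining the DMSO and CCS1477 cells of a mouse, *D/F* in red and *T/F* in blue, and the group mean ± SD in black. *Pbrm1* was higher and *Smarcc1* lower with CCS1477 in 6 of 6 mice, while the square (*D/F* replicate 2) stood high in DMSO for *Smarca2*, *Arid1a*, *Arid1b* and *Smarcc2*.

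Of the 10 subunits, *Pbrm1* rose and *Smarcc1* fell with CCS1477 in the fit over both genotypes, and *Pbrm1* and *Smarcc2* rose in the separate fit of *T/F* AML. Their responses were not shown to differ between the genotypes, since no difference of the responses was called. None of the 10 passed 2-fold in either genotype, where 7.28% of all genes tested in *D/F* and 7.33% of those tested in *T/F* passed 2-fold at an adjusted p under 0.05. With 10 genes, a count of 0 is near these shares, and nothing particular to the subunits is read from it. Fold changes are differences on the log2(TPM + 1) scale (CCS1477 minus DMSO), tested by limma across all genes, and a gene was called at a Benjamini-Hochberg adjusted p under 0.05.

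In *D/F* AML none of the 10 subunits was called, a count of 0, and 1 of them (*Smarcc1*) had an unadjusted p under 0.05, where 5.14% of all genes tested were called higher and 6.51% were called lower. Pairing the cells of each mouse called 1 subunit, *Smarcc1*, lower, with 21.4% of all genes called higher and 18.0% called lower. In *T/F* AML 2 subunits were called higher and none lower, where 25.8% of all genes were called higher and 17.6% were called lower, and the count was 0 without *T/F* replicate 1 and 1 without replicate 2. The paired fit called 3 higher (*Pbrm1*, *Smarcc2* and *Smarca2*) and 1 lower (*Smarcc1*) in *T/F*, with 31.2% and 22.9% of all genes. Over both genotypes 1 subunit was called higher and 1 lower, against 25.8% and 19.6% of all genes. The shares of all genes called with a *T/F* mouse left out are not given here. With 10 genes, 1 call is 10% of the list, and nothing particular to the subunits is read from these counts. The median log2 fold change of the 10 subunits was -0.06 in *D/F*, 0.11 in *T/F* and 0.03 over both genotypes, and the median of all genes was 0.06, 0.07 and 0.07.

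Without *D/F* replicate 2, the fit over both genotypes called 5 of the 10 subunits, 4 higher (*Pbrm1*, *Smarca2*, *Smarcc2* and *Arid1b*) and 1 lower (*Smarcc1*), where 32.6% of all genes were called higher and 22.8% lower. By range alone, the CCS1477 and DMSO values of 1 subunit did not overlap in the higher direction and of 1 in the lower direction in *D/F* (19.9% and 16.7% of all genes), and of 3 and 1 in *T/F* (33.5% and 22.6% of all genes). The 3 in *T/F* were *Pbrm1*, *Smarcc2* and *Arid2*. An exact permutation test of 3 samples against 3 cannot give a p below 0.1.

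**Figure D2:**
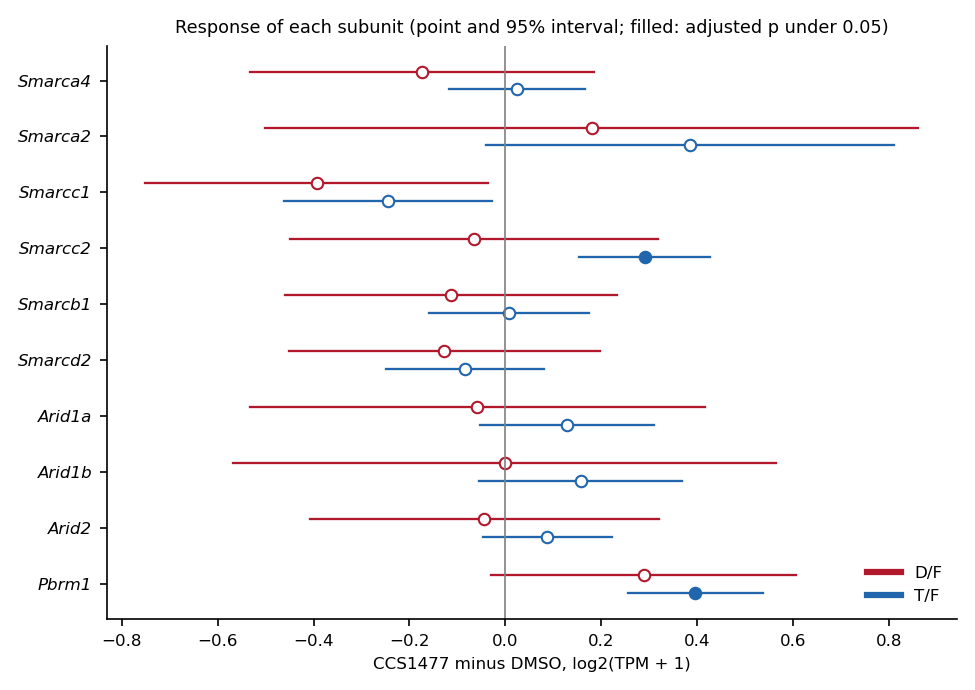
Difference between CCS1477 and DMSO on the log2(TPM + 1) scale for each of the 10 subunits in *D/F* (red) and *T/F* (blue), as the limma estimate with its 95% interval, filled where the adjusted p was under 0.05. Intervals in *D/F* were wider than those in *T/F* for every subunit, and only *Pbrm1* and *Smarcc2* in *T/F* are filled.

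The catalytic subunits differed in level, with 5.20 times as much *Smarca4* as *Smarca2* in DMSO in *D/F* and 5.82 times as much in *T/F*, and neither was called in the separate fit of either genotype. *Smarca4* (ENSMUSG00000032187, chromosome 9, 21616169 to 21704230, plus strand, GRCm38), which encodes the ATPase BRG1, was 108, 110.5 and 119 TPM in the DMSO-treated *D/F* cells of replicates 1, 2 and 3, and 102, 88.8 and 108 TPM with CCS1477. In *T/F* the same gene was 112, 107 and 112 TPM in DMSO and 113, 110.1 and 114 TPM with CCS1477. *Smarca4* was lower with CCS1477 in 3 of 3 *D/F* mice and higher in 3 of 3 *T/F* mice, and the groups overlapped in each genotype. On the log2 scale the response was -0.17 ± 0.15 (SE, adjusted p = 0.477) for *D/F* and 0.02 ± 0.06 (SE, adjusted p = 0.757) for *T/F*, and the difference between them was 0.20 (95% interval -0.11 to 0.50, adjusted p = 1.00).

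*Smarca2* (ENSMUSG00000024921, chromosome 19, 26605050 to 26778322, plus strand), which encodes the alternative ATPase BRM, was the least expressed of the 10. It was 20.9, 35.0 and 16.3 TPM in DMSO and 25.1, 29.1 and 24.3 TPM with CCS1477 in *D/F* replicates 1, 2 and 3. The *T/F* values of *Smarca2* were 21.1, 14.8 and 22.8 TPM in DMSO and 26.3, 22.7 and 27.7 TPM with CCS1477. It was higher with CCS1477 in 5 of 6 mice, the exception being *D/F* replicate 2, the library with the highest level of all 12 in DMSO. The *D/F* response was 0.18 ± 0.28 (standard error, adjusted p = 0.715) on the same scale, and that in *T/F* was 0.38 ± 0.17 (standard error, adjusted p = 0.123). In the paired fit the *T/F* value passed the threshold (standard error 0.08, adjusted p = 0.0257). Without *D/F* replicate 2 the *D/F* value was 0.40 (adjusted p = 0.132), and the value over both genotypes went from 0.28 (adjusted p = 0.200) to 0.39 (adjusted p = 0.0213).

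Over the 12 libraries, the genes of at least 5 TPM whose log2 level followed *Smarca4* most closely were *Matr3* (Pearson r = 0.926), *Mcm6* (0.922) and *Eif3k* (0.920), out of 11603 genes compared. Among those closest to *Smarca2* were *Elf2* (r = 0.952) and *Mettl7a1* (0.938). These are descriptions over libraries that share mice in pairs and were picked as the highest of many. None of the 3 genes closest to *Smarca4* was called in any of the 3 response fits, and *Mettl7a1* was called in *T/F* (log2 fold change 0.81, standard error 0.12, adjusted p = 0.00390) and, in the paired fit, also over both genotypes (adjusted p = 0.0188, and 0.113 unpaired). *Elf2* was not called in the unpaired fits (0.23 in *T/F*, adjusted p = 0.0645), and was called higher in *T/F* in the paired fit (adjusted p = 0.0431).

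The scaffold paralogs *Smarcc1* (BAF155) and *Smarcc2* (BAF170), which hold the core of the complex together as dimers, had opposite signs of response in *T/F* AML, where the paired fit called both. *Smarcc1* (ENSMUSG00000032481, chromosome 9, 110117708 to 110240178, plus strand) was 112, 121 and 129 TPM in DMSO and 90.1, 84.8 and 101 TPM with CCS1477 in *D/F* replicates 1, 2 and 3. The *T/F* values of *Smarcc1* were 122, 109 and 132 TPM in DMSO and 101, 97.1 and 107 TPM with CCS1477. It was lower in 6 of 6 mice, and every CCS1477 value of a genotype lay below every DMSO value.

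Over both genotypes *Smarcc1* fell by 0.32 on the log2 scale (standard error 0.08, adjusted p = 0.00588), which is 19.8% on the TPM + 1 scale. Fitted alone, *D/F* gave -0.39 ± 0.15 (standard error, adjusted p = 0.135) and *T/F* gave -0.24 ± 0.09 (standard error, adjusted p = 0.0702). Both passed in the paired fits (adjusted p = 0.0355 in *D/F*, adjusted p = 0.0253 in *T/F*). In the annotation *Smarcc1* begins within *Dhx30*, a gene for an RNA helicase on the other strand, with the starts 122 bases apart. *Dhx30* was not called in *D/F*, *T/F* or over both genotypes (log2 fold change over both -0.03, standard error 0.09, adjusted p = 0.785). The RefSeq start used for the printed window lies farther downstream, inside the annotated gene.

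*Smarcc2* (ENSMUSG00000025369, chromosome 10, 128459248 to 128490482, plus strand) was 72.9, 73.1 and 74.7 TPM in DMSO and 91.2, 91.4 and 88.0 TPM with CCS1477 in *T/F* replicates 1, 2 and 3. These groups did not overlap. In *D/F* it was 75.2, 88.6 and 70.3 TPM in DMSO and 79.8, 67.8 and 75.3 TPM with CCS1477, so that replicates 1 and 3 were higher and replicate 2 was lower. *Smarcc2* rose by 0.29 on the log2 scale in *T/F* (standard error 0.06, adjusted p = 0.00881), or 22.3% on the TPM + 1 scale, and the value in *D/F* was -0.07 (standard error 0.16, adjusted p = 0.824).

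Without *D/F* replicate 2 the *D/F* value of *Smarcc2* was 0.09 (adjusted p = 0.573), and the value over both genotypes went from 0.11 (adjusted p = 0.337) to 0.21 (adjusted p = 0.0104). The difference between the *T/F* and *D/F* responses was 0.36 (95% interval 0.02 to 0.69, unadjusted p = 0.0390 from limma), and its adjusted p was 1.00. In the paired fit its 95% interval was -0.01 to 0.72 (unadjusted p = 0.0556 from limma). This difference is not given here without *D/F* replicate 2. Without *T/F* replicate 1 or replicate 2 the adjusted p in *T/F* was 0.0977 or 0.0936.

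The remaining core subunits were not called in any response. *Smarcb1* (SNF5, ENSMUSG00000000902, chromosome 10, 75896769 to 75921617, minus strand), the core subunit best known as the tumor suppressor of rhabdoid tumors, was 74.9, 75.0 and 76.3 TPM in DMSO and 71.7, 62.3 and 75.5 TPM with CCS1477 in *D/F*. The *T/F* values of *Smarcb1* were 87.1, 78.6 and 78.9 TPM in DMSO and 80.3, 81.9 and 83.5 TPM with CCS1477. The *D/F* log2 fold change was -0.11 (95% interval -0.46 to 0.23), the *T/F* one was 0.01 (95% interval -0.16 to 0.17), and the groups overlapped in both.

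*Smarcd2* (BAF60b, ENSMUSG00000078619, chromosome 11, 106263179 to 106272972, minus strand) is the Smarcd paralog needed for granulocyte maturation, and it was the second most abundant of the 10. It was 144, 136 and 148 TPM in DMSO and 127, 128 and 138 TPM with CCS1477 in *D/F*, and 140.5, 144 and 150.0 TPM in DMSO and 129, 140.0 and 141 TPM with CCS1477 in *T/F*. Although it was lower with CCS1477 in 6 of 6 mice, the groups overlapped and the log2 fold change over both genotypes was -0.11 (standard error 0.06, adjusted p = 0.175). Pairing the mice did not bring it past the threshold (adjusted p = 0.0704).

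The BAF subunits *Arid1a* and *Arid1b*, mutually exclusive DNA-binding subunits of the canonical complex, had SDs of 29.2 and 19.8 TPM in DMSO-treated *D/F* cells, where replicate 2 was the highest for both. *Arid1a* (ENSMUSG00000007880, chromosome 4, 133679008 to 133756769, minus strand) was 156, 206 and 154 TPM in DMSO and 137, 188 and 170 TPM with CCS1477 in *D/F* replicates 1, 2 and 3. The *T/F* values of *Arid1a* were 157, 157 and 176 TPM in DMSO and 177, 174 and 184 TPM with CCS1477. It was lower in 2 of 3 *D/F* mice and higher in 3 of 3 *T/F* mice, with overlapping groups and log2 fold changes of -0.06 (95% interval -0.53 to 0.42) and 0.13 (95% interval -0.05 to 0.31).

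*Arid1b* (ENSMUSG00000069729, chromosome 17, 4994332 to 5347656, plus strand) was 51.4, 87.0 and 54.2 TPM in DMSO and 57.9, 69.3 and 60.3 TPM with CCS1477 in *D/F* replicates 1, 2 and 3. The *T/F* values of *Arid1b* were 50.9, 52.4 and 59.4 TPM in DMSO and 58.7, 58.3 and 64.6 TPM with CCS1477. It was higher in 5 of 6 mice, again with *D/F* replicate 2 as the exception. On the log2 scale the difference was -0.00 for *D/F* (95% interval -0.57 to 0.56) and 0.16 for *T/F* (95% interval -0.05 to 0.37), neither of which was called, and over both genotypes it went from 0.08 (adjusted p = 0.646) to 0.16 (adjusted p = 0.0485) without *D/F* replicate 2. *Arid1b* overlaps *Gm15599*, which has its own entry in the table.

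Of the PBAF subunits, *Pbrm1* was called and *Arid2* was not. *Arid2* (BAF200, ENSMUSG00000033237, chromosome 15, 96287518 to 96404992, plus strand), the ARID subunit that distinguishes PBAF from BAF, was 47.2, 46.7 and 41.1 TPM in DMSO and 47.5, 39.2 and 44.3 TPM with CCS1477 in *D/F*. The *T/F* values of *Arid2* were 40.0, 40.2 and 39.9 TPM in DMSO and 41.7, 43.2 and 42.9 TPM with CCS1477. The *T/F* groups did not overlap, yet their log2 difference of 0.09 ± 0.05 (standard error, adjusted p = 0.245) was not called, and the *D/F* difference was -0.04 ± 0.15 (standard error, adjusted p = 0.879).

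*Pbrm1* (polybromo or BAF180, ENSMUSG00000042323, chromosome 14, 31019138 to 31121592, plus strand), the subunit with several bromodomains, showed the highest fold change of the 10 over both genotypes. It was 100.5, 100.1 and 98.1 TPM in DMSO and 119, 118 and 128 TPM with CCS1477 in *D/F* replicates 1, 2 and 3. In *T/F* it was 96.3, 97.0 and 95.6 TPM in DMSO and 127, 123 and 131 TPM with CCS1477. The DMSO values of all 6 mice lay between 95.6 and 100.5 TPM, every CCS1477 value was above every DMSO value, and the direction was the same in 6 of 6 mice.

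Over both genotypes *Pbrm1* rose by 0.34 on the log2 scale (standard error 0.06, adjusted p = 5.95e-04), or 26.7% on the TPM + 1 scale. In *T/F* it rose by 0.40 (standard error 0.06, adjusted p = 0.00331), and the *D/F* value was 0.29 (standard error 0.13, adjusted p = 0.201, and 0.0650 in the paired fit). Without *T/F* replicate 1 the *T/F* value was also 0.40, with an adjusted p of 0.0512. The difference between the responses was 0.11 (95% interval -0.15 to 0.36), which was not called.

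*Pbrm1* is annotated head to head with *Gnl3* (nucleostemin, a nucleolar GTPase gene), which was taken up here as the neighbour within 1000 bases and not for its values. *Gnl3* (ENSMUSG00000042354, chromosome 14, 31012433 to 31019152) lies on the minus strand, so both genes start inside the window printed for *Pbrm1*. *Gnl3* was 126, 138 and 160.2 TPM in DMSO and 16.9, 21.5 and 25.9 TPM with CCS1477 in *D/F*, and 139, 129 and 139 TPM in DMSO and 20.9, 20.3 and 27.1 TPM with CCS1477 in *T/F*. It fell by 2.68 on the log2 scale in *D/F* (standard error 0.20, adjusted p = 0.00350) and by 2.54 in *T/F* (standard error 0.12, adjusted p = 3.11e-04), while *Pbrm1* from the same window rose in the fit over both genotypes. Whether the quantification used the strand of the reads is not given in the sources used here, and *Pbrm1* also overlaps *Gm5459* and *Smim4*, which have entries of their own.

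**Figure D3:**
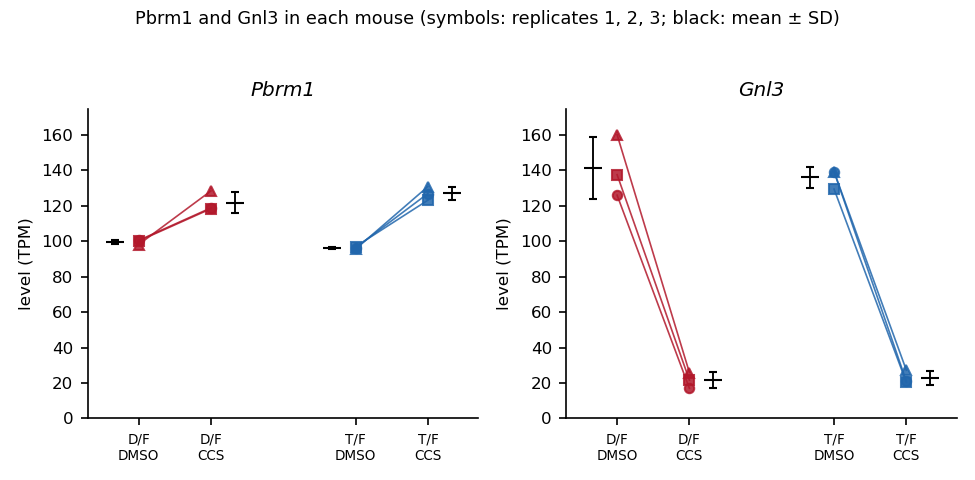
Level (TPM, axes from 0 and equal) of *Pbrm1* and of its head-to-head neighbour *Gnl3* in each mouse, with lines joining the DMSO and CCS1477 cells, *D/F* in red, *T/F* in blue and the group mean ± SD in black. With CCS1477 *Gnl3* lay between 16.9 and 27.1 TPM in all 6 mice, and *Pbrm1* lay between 118 and 131 TPM.

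Ratios within a library compare subunits that can take the same place in the complex, or that belong to the same form of it, and are given as a description with no test. They restate the levels given above, and the share of other gene pairs with such changes is not given here. The ratio of *Smarcc1* to *Smarcc2* was 1.57 ± 0.246 (SD, n = 3) in DMSO and 1.24 ± 0.105 with CCS1477 in *D/F*, and the *T/F* values were 1.64 ± 0.135 and 1.13 ± 0.0784. It was lower with CCS1477 in 6 of 6 mice, by 0.13 to 0.46 on the log2 scale in *D/F* and by 0.49 to 0.59 in *T/F*, and no group overlapped its DMSO counterpart. The ratio was lower in *D/F* replicate 2 as well (1.37 in DMSO and 1.25 with CCS1477), where both paralogs were lower with CCS1477.

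The ratio of *Smarca4* to *Smarca2* was 5.20 ± 2.08 in DMSO and 3.86 ± 0.727 with CCS1477 in *D/F*, and the *T/F* values were 5.82 ± 1.22 and 4.42 ± 0.385 (SD, n = 3). It was also lower in 6 of 6 mice, with a mean log2 change of -0.37 ± 0.33 (SD) in *D/F*, where the groups overlapped, and of -0.38 ± 0.17 in *T/F*, where they did not. The ratio of *Arid2* to *Pbrm1* was lower in 6 of 6 mice, with mean log2 changes of -0.34 ± 0.14 and -0.31 ± 0.06. The ratio of *Arid1a* to *Arid1b* went from 2.75 ± 0.348 to 2.64 ± 0.236 in *D/F* and from 3.01 ± 0.0581 to 2.95 ± 0.0839 in *T/F*. It was lower in 2 of 3 *D/F* mice and in 3 of 3 *T/F* mice. Its mean log2 changes were -0.06 ± 0.28 and -0.03 ± 0.03, with overlapping groups in both genotypes.

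**Figure D4:**
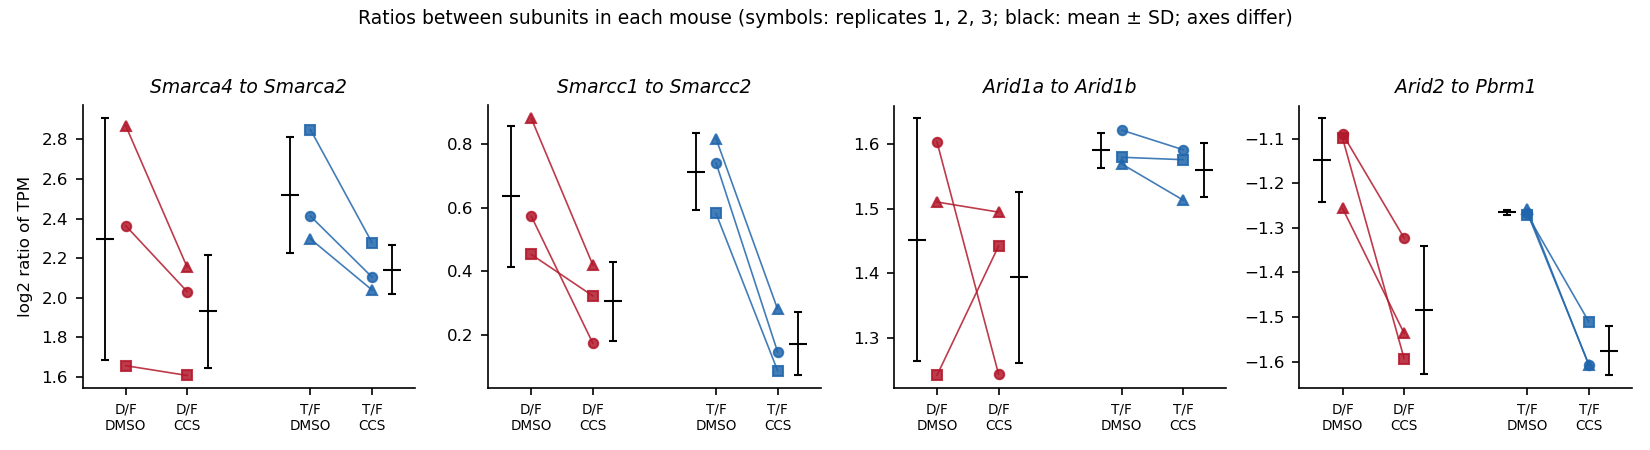
Log2 ratio of TPM between pairs of subunits in each library (axes differ between panels), with lines joining the DMSO and CCS1477 cells of a mouse, *D/F* in red, *T/F* in blue and the group mean ± SD in black. The lines of *Smarca4* to *Smarca2*, *Smarcc1* to *Smarcc2* and *Arid2* to *Pbrm1* go down in 6 of 6 mice. Those of *Arid1a* to *Arid1b* go down in 2 of 3 *D/F* mice and in 3 of 3 *T/F* mice.

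Of 21 other SWI/SNF subunits, 18 were in the table. In *D/F* none of the 18 was called, a count of 0, with 3 at an unadjusted p under 0.05, and the paired fit called 4 higher, beside 21.4% of all genes. In *T/F* 5 of the 18 were called higher and none lower, beside 25.8% and 17.6% of all genes (1 without replicate 1, 1 without replicate 2 and 3 without replicate 3), and over both genotypes 6 were called higher and none lower (3 without *T/F* replicate 3). Those 6 were *Dpf1*, *Bicra*, *Ss18l1*, *Smarcd1*, *Bcl7b* and *Brd9*, beside a background of 25.8% of all genes called higher. The fits with a mouse left out had fewer samples, and their shares of all genes are not given here. Nothing particular to the 18 is read from these counts. The median log2 fold change of the 18 over both genotypes was 0.08, and that of all genes was 0.07.

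*Bicra*, the scaffold of the non-canonical form (ncBAF), rose from 12.8, 12.3 and 12.4 TPM in DMSO to 20.7, 21.6 and 21.3 TPM with CCS1477 in *T/F*, which is 0.71 ± 0.06 on the log2 scale (standard error, adjusted p = 6.35e-04). In *D/F* it was 11.6, 16.8 and 12.5 TPM in DMSO and 18.8, 21.9 and 18.0 TPM with CCS1477 (log2 fold change 0.50, adjusted p = 0.130, and 0.0243 in the paired fit). *Dpf1*, a BAF45 subunit known from neurons, stayed between 0.599 and 5.33 TPM, and over both genotypes it rose by 0.93 on the log2 scale (standard error 0.24, adjusted p = 0.00761), a scale that understates changes at such levels. *Ss18l1* (CREST), a paralog of *Ss18*, lay between 2.81 and 5.93 TPM in DMSO and between 5.03 and 9.88 TPM with CCS1477, a rise of 0.51 (standard error 0.16, adjusted p = 0.0215), and *Ss18* itself was not called (0.10, adjusted p = 0.304).

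*Smarcd1*, the paralog of *Smarcd2*, is given here because it can take the same place in the complex, and it was chosen after its values were seen. It was 28.5, 33.6 and 30.4 TPM in DMSO and 37.4, 41.2 and 39.7 TPM with CCS1477 in *D/F*, and 30.1, 27.4 and 32.1 TPM in DMSO and 40.5, 39.5 and 45.9 TPM with CCS1477 in *T/F*. Its groups were separate in both genotypes, and *Smarcd1* rose by 0.41 on the log2 scale over both (standard error 0.07, adjusted p = 9.74e-04). *Smarcd2* was not called, at -0.11.

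Among 20 ATPases of other remodeler families, 19 were in the table. In *D/F* 1 of the 19 was called lower, beside 6.51% of all genes (0 without replicate 1 or replicate 3, and 2 without replicate 2). In *T/F* 5 were called higher and 3 lower, beside 25.8% and 17.6% of all genes (3 in all without replicate 1 and 2 without replicate 2). Over both genotypes 5 were called higher and 3 lower as well, beside 25.8% and 19.6% of all genes. Without *D/F* replicate 2 that fit called 13 in all, beside 32.6% of all genes called higher and 22.8% called lower. For the other fits with a mouse left out, the shares of all genes are not given here. Nothing particular to these ATPases is read from the counts. Pairing the mice called 4 higher and 3 lower in *D/F* (21.4% and 18.0% of all genes), 6 higher and 4 lower in *T/F* (31.2% and 22.9%), and 9 higher and 4 lower over both genotypes (34.5% and 25.9%). *Chd7*, a CHD family remodeler of enhancers, was the only one called in both *D/F* and *T/F* in the unpaired fits, and the paired fits called *Chd4*, *Chd6*, *Ino80*, *Rad54l2* and *Srcap* in both as well. It was 43.9, 25.4 and 49.4 TPM in DMSO and 17.9, 8.29 and 15.0 TPM with CCS1477 in *D/F*, and 29.7, 47.2 and 48.6 TPM in DMSO and 13.6, 17.8 and 19.6 TPM with CCS1477 in *T/F*, with falls of 1.47 (adjusted p = 0.0476) and 1.23 (adjusted p = 0.00764) on the log2 scale. Over both genotypes *Chd6* rose by 0.77 (adjusted p = 0.00533), *Chd4*, the ATPase of the NuRD complex, rose by 0.44 (adjusted p = 0.00580), and *Ino80* fell by 0.39 (adjusted p = 0.00166). The SWI/SNF ATPases *Smarca4* (-0.07, adjusted p = 0.434) and *Smarca2* (0.28, adjusted p = 0.200) were not called in the same fit.

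**Figure D5:**
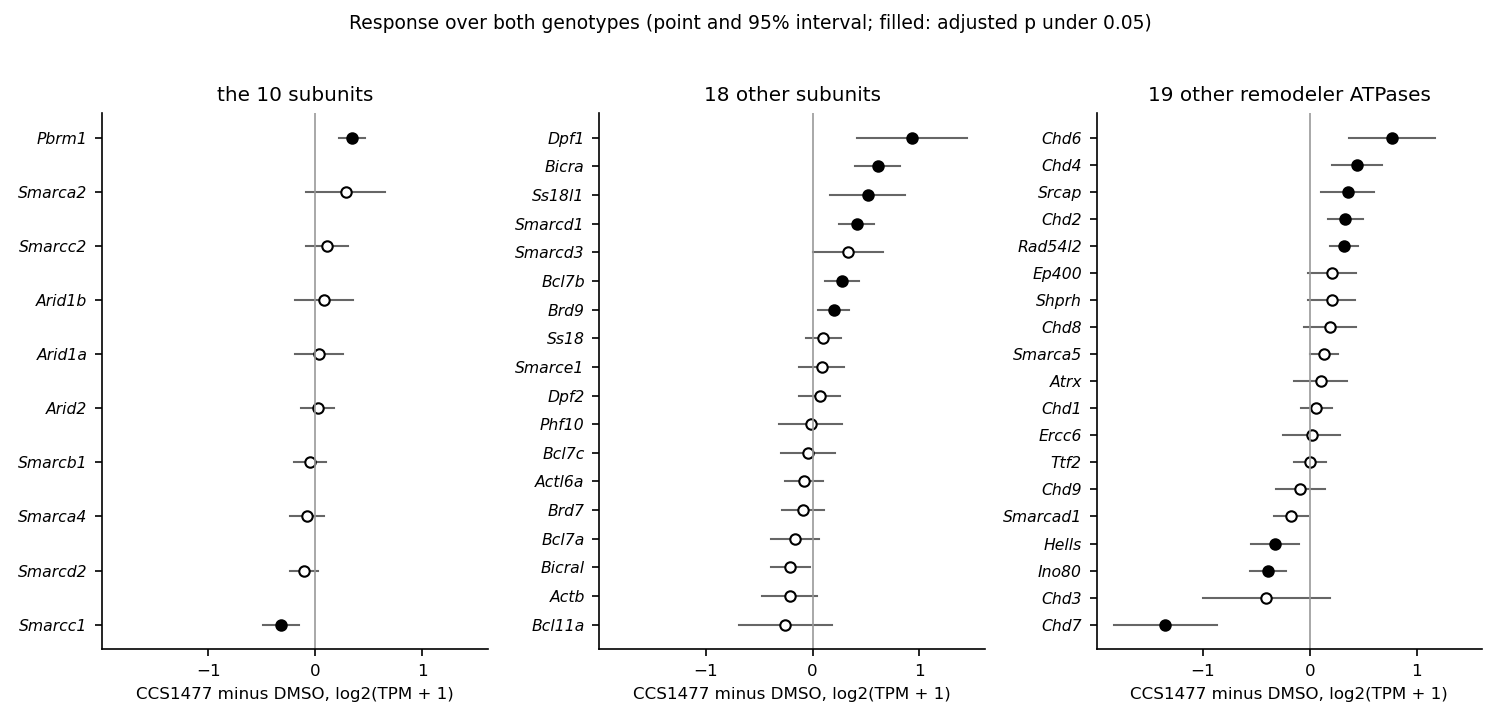
Difference between CCS1477 and DMSO over both genotypes on the log2(TPM + 1) scale (limma estimate and 95% interval, filled where the adjusted p was under 0.05) for the 10 subunits, 18 other subunits and 19 other remodeler ATPases, on 1 shared axis. The 10 subunits lie between -0.32 and 0.34, the other subunits between -0.25 and 0.93, and the other ATPases between -1.35 and 0.77.

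The genotypes were compared within each treatment, and the age of the mice may also differ between them. In DMSO none of the 10 subunits differed between *T/F* and *D/F* at an adjusted p under 0.05 or at an unadjusted p under 0.05 (counts of 0 and 0 by limma), where 0.0328% of all genes were called. The differences (*T/F* minus *D/F*) ran from -0.24 for *Smarca2* (95% interval -0.98 to 0.50) to 0.11 for *Smarcb1* (95% interval -0.15 to 0.37). With CCS1477, where the dose also differed, 0 were called and 1 (*Smarcc2*, 0.28, 95% interval 0.02 to 0.54) had an unadjusted p under 0.05, with 0.0329% of all genes called. The difference of the responses was above 0 for 10 of the 10 subunits, from 0.04 for *Smarcd2* to 0.36 for *Smarcc2*, with a median of 0.15 against 0.02 over all genes. Without *D/F* replicate 2 the median was 0.07 and the difference was above 0 for 8 of the 10. The share of all genes above 0 is not given here. The 10 subunits were measured in the same mice, and nothing particular to them is read from these counts. None was called, a count of 0 by limma, with 1 at an unadjusted p under 0.05, and 0% of all genes were called.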

How the data were processed

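Gene-level TPM were deposited by the authors as linear values, neither pooled nor averaged, with the submitters' processing notes naming kallisto and mm10 and the study's methods naming AltAnalyze 2.1.3. Kallisto settings and the annotation are not given in the sources used here. The labels name both ribosome depletion and a stranded mRNA kit, RNA with RIN above 8, and paired-end reads of 150 bases at 30000000 reads, without saying whether each library reached that number. The lowest of the genes' highest values was 2.00 TPM, so low genes were already left out. TPM keep no read numbers, so no count model was fitted and no interval for counting error was given, and the precision of a value is the spread between 3 mice. All 12 columns were matched to samples by mouse number, genotype and treatment, with 0 left over.

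A gene was tested if its mean reached 1 TPM in any group compared. Tests were two-sided, by limma 3.58.1 (R 4.3.3) on log2(TPM + 1) with the untrended eBayes, Benjamini-Hochberg adjusted p-values were taken over every gene tested, and a call needed an adjusted p under 0.05. D/F and T/F were fitted separately, then together with a term for genotype, and the difference of the responses came from a fit of 4 groups. Each treatment was also compared between genotypes. The unpaired fit of each comparison was first tested on simulated data in which known genes had been changed. The paired fits and the other alternatives were not tested in this way, and the simulated libraries held no mouse effect. The samples are separate mice within a group.

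By the labels, a replicate number stands for a mouse whose cells were split between CCS1477 and DMSO. After group means were subtracted, their correlation over 13313 genes was 0.469 to 0.736, and the highest between mice was 0.255, so the numbers pair the samples. Values are from the unpaired fit, and the paired value stands beside a subunit's value, or a count, where it changes the call or moves the count by over 1.5 times.

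The 10 genes, the other lists and the tests were chosen with earlier results of these data known. Of the other subunits and the other remodeler ATPases, those called in both genotypes were named, with the 3 further genes of the largest absolute change over both genotypes among those called in that fit. For *Smarca4* and *Smarca2* the 3 genes of highest Pearson r with a mean of at least 5 TPM were chosen, of which 1 is not reported here. Other names beside small counts, and *Smarcd1*, were added after their values were seen. Positions come from GENCODE M21 (GRCm38) and promoter windows from RefSeq (GRCm38.p6). Alternatives were a pseudocount of 0.1, a filter of 5 TPM or none, the mouse as a block, median rescaling, quantile normalization, eBayes with a trend, a shared fit of 4 groups, a 2-fold limit and leaving out each mouse, and those applied to the other remodeler ATPases and to the subunits' values over both genotypes were added after the data were seen.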

Additional observations from a re-analysis of the deposited data

Results flagged for a closer look

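The response of *Smarca4* to CCS1477 had opposite signs in the genotypes: it was lower in 3 of 3 *D/F* mice and higher in 3 of 3 *T/F* mice. The *T/F* response minus the *D/F* response was 0.20 on the log2(TPM + 1) scale, with an adjusted p of 1.00 (0.180 unadjusted) by limma over 15583 genes, of which 659 had an unadjusted p under 0.05 and 0 were called. The doses were 4 µM and 2 µM, and dose and genotype cannot be told apart. Under median rescaling the *T/F* value of *Smarca4* was -0.027, below 0.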

How the results depend on the processing

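The count of the 10 subunits called changed with the mice and the fit used, and nothing particular to the subunits is read from it. Shares of all genes called are given above for the block and for the fit over both genotypes without *D/F* replicate 2. They are not given for the other mice left out or for the shared fit. In *D/F* the count of subunits called was 0, and it was 1 with the mouse as a block, 2 in the shared fit of 4 groups, and 0 with each mouse left out. In *T/F* the count was 2, against 4 with the mouse as a block, 1 in the shared fit, 0 above 2-fold and 0 to 2 with a mouse left out (0 without replicate 1, 1 without replicate 2). Over both genotypes it was 2, against 0 above 2-fold and 2 to 5 with a mouse left out (5 without *D/F* replicate 2). Of the 18 other subunits, 0 were called in *D/F*, against 4 with the block, 1 with quantile normalization, 3 in the shared fit and 0 to 2 with a mouse left out. In *T/F* 5 were called, against 2 in the shared fit, 0 above 2-fold and 1 to 3 with a mouse left out. Over both genotypes 6 were called, against 0 above 2-fold and 3 to 8 with a mouse left out (3 without *T/F* replicate 3). Counts with a mouse left out come from fewer samples. The cause of the other shifts was not tested. The block, whose pairing is by mouse, changed no other count of the subunits by over 1.5 times, and the difference of the responses and the genotype comparisons gave 0 calls under every alternative.

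Reversed signs were found only among values of the subunits that were not called. Under median rescaling, these were *Smarca4* (-0.027) and *Smarcb1* (-0.044) in *T/F*, and *Arid1a* (-0.0071) and *Arid2* (-0.020) over both genotypes. Under quantile normalization, they were *Smarcd2* (0.015), *Arid1a* (0.085) and *Arid1b* (0.031) in *D/F*, and *Smarcd2* (0.0044) over both genotypes. With a mouse left out, the lowest and highest log2 fold changes were -0.0033 and 0.40 for *Smarca2*, -0.15 and 0.092 for *Smarcc2*, -0.16 and 0.0046 for *Arid1a*, -0.087 and 0.16 for *Arid1b* and -0.12 and 0.057 for *Arid2* in *D/F*, and -0.029 and 0.069 for *Smarcb1* in *T/F*. The median of all genes shifted by less than 0.1 on the log2 scale under both scalings. In all, 330 of the 360 values of single subunits under an alternative kept their direction and their side of the threshold, 11 came to pass it, 4 no longer passed it and 15 changed sign. The call of *Chd7* in *D/F* was lost with a pseudocount of 0.1, with median rescaling and with quantile normalization. The labels give 30000000 reads for a library, but the reads behind each value are unknown, so the limit that depth sets on these values is unknown.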

Other observations

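The subunits that define ncBAF, the SWI/SNF form without ARID or Smarcb1 subunits, differed in sign over both genotypes. *Brd9*, a bromodomain subunit, rose by 0.20 on the log2(TPM + 1) scale (adjusted p = 0.0297 by limma), and *Bicra* rose by 0.61 (adjusted p = 3.65e-04). *Bicral*, the paralog of *Bicra*, was lower with CCS1477 in 6 of 6 mice at -0.21, which was not called without pairing (adjusted p = 0.0574) and was called in the paired fit (adjusted p = 0.0310). These genes were chosen after their values were seen. The *Bicra* and *Bicral* values have opposite signs, as do those of *Smarcc2* and *Smarcc1* in *T/F*, and the difference within each pair was not tested.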
